A study of Mus musculus with 6 samples.

Results

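The 10 genes described here make, break down or sense prostaglandins. They are the cyclooxygenases Ptgs1 and Ptgs2, the terminal synthases Ptges, Ptgds and Ptgis, the breakdown enzyme Hpgd, and the receptors Ptgfr, Ptger2, Ptger3 and Ptger4. They were chosen by name, with earlier results of these data known. Each was found by NCBI gene number among the 18305 genes of the deposited tables. All 10 had enough reads to be tested. The libraries came from cultured cells of KM mice, sequenced as bulk RNA, with 2 libraries in each of 3 groups. CiLC are embryonic fibroblasts of 12.5 or 13.5 days of gestation, passages 3 to 5, that were given a set of small molecules 24 h after seeding. The labels do not name the compounds. LC are Leydig cells, the androgen-making cells of the testis, taken from testis tissue and kept for passages 0 to 1. MEF are the fibroblasts of the same gestation days and passages without induction. The series asked how far the induced cells take on a Leydig cell profile.

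Prostaglandins are short-lived lipid signals made from arachidonic acid, which phospholipases free from membranes. The cyclooxygenases turn it into the intermediate PGH2. Each terminal synthase then makes mainly a single prostaglandin from PGH2, so the set of synthases in a cell fixes which prostaglandins it can release. The products leave the cell and act on G protein-coupled receptors, and 15-hydroxyprostaglandin dehydrogenase, the product of Hpgd, inactivates them inside cells. In the testis, Leydig cells and macrophages are both known to make prostaglandins, and PGF2α acting through Ptgfr is known from rodent Leydig cells as a brake on steroid output.

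The upstream windows of 4 of these genes are shown because their mRNAs gave the opposite changes of the cyclooxygenase pair and the largest changes of a synthase and a receptor in CiLC against MEF. Each is the 250 bases before the annotated start, from RefSeq on GRCm38.p6, written 5′ to 3′ along the gene. Capitals mark a match, on either strand, to GGGCGG (a GC box), TTGCGCAA (a C/EBP site) or AGGTCA (a nuclear receptor half-site, here as its reverse complement). The Ptgs1 window is chr2:36230176-36230425 on the plus strand. The Ptgs2 window is chr1:150099781-150100030 on the plus strand. The Ptgds window is chr2:25469750-25469999 on the minus strand. The Ptgfr window is chr3:151837529-151837778 on the minus strand.
Ptgs1: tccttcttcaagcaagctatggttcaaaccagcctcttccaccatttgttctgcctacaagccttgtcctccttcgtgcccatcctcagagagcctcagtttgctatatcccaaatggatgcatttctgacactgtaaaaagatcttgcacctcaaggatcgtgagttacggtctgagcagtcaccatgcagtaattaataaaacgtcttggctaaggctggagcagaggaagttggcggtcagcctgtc
Ptgs2: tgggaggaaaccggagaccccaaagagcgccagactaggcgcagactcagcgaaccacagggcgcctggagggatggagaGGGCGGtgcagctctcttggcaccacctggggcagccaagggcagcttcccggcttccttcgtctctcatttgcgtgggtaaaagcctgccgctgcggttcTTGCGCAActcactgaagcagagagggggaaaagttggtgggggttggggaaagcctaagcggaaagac
Ptgds: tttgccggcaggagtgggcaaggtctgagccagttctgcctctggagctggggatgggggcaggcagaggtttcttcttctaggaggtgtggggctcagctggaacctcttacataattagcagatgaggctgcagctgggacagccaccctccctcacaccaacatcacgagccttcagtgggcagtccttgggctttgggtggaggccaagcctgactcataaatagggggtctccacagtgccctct
Ptgfr: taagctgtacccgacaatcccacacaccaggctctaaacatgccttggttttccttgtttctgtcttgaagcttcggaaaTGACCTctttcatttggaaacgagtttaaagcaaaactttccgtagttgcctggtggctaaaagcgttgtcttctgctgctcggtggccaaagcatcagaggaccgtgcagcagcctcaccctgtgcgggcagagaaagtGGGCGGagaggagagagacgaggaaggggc

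The Ptgs2 window held TTGCGCAA from 69 to 62 bases before the start, a word found in 0.164% of 32851 upstream windows of the same length. It also held a GC box at 170 to 165 bases. The Ptgfr window held AGGTCA on the opposite strand at 170 to 165 bases, a word in 14.0% of all windows, and a GC box at 30 to 25 bases. The GC box word occurred in 32.7% of all windows. A window was available for 9 of the 10 genes. Ptger4 held 4 GC boxes, of which a pair overlapped by 1 base, Ptger3 held 3, Ptges 2 and Hpgd 1. The windows of Ptgs1, Ptgds and Ptger2 held none of the words searched. None of the 9 windows held the TATA box word TATAAA (in 12.4% of all windows), the E-box CACGTG (6.02%), the cyclic AMP response element TGACGTCA (1.55%) or its first part TGACG (17.8%), or CAAGGTCA (1.33%), the word bound by Nr5a1. The looser word TTGCNNAA (9.56%) occurred only where the C/EBP site did. Each window ended at the annotated start, so bases after that start, and bases further upstream than the window, were not searched. The absence of a word from a window therefore does not show that the promoter of the gene lacks it. A match is a description of letters and not a bound site.

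The 6 libraries held 18.4 to 18.9 M estimated reads each. The spread within groups was small, with a common biological coefficient of variation of 3.16%. No label tells if a pair of libraries was grown from different cultures or animals, so the p-values cover the spread between libraries alone, and that spread may be technical. The labels were set against the Leydig list of 7 genes, which summed to 148 and 144 CPM (read counts scaled to a common library size) in CiLC, 1108 and 1081 in LC, and 7.55 and 9.42 in MEF. In LC, Cyp11a1 stood at 718 and 692 CPM and Star at 184 and 180, but Lhcgr, the luteinizing hormone receptor, held 0.174 and 0.118 CPM and Cyp17a1 0 and 0.0588. The cells labelled LC thus held Lhcgr and Cyp17a1, genes that define Leydig cells, at near 0. Fibroblast markers summed to 18764 and 18865 CPM in CiLC, 18638 and 19338 in LC, and 23411 and 24275 in MEF, mostly from Col1a1 and Col1a2. Of the 6 genes, 4 were called higher and 2 lower in CiLC against MEF, beside 26.1% and 25.5% of all genes tested. In LC against MEF, 2 were called higher and 4 lower, beside 35.7% and 35%. Thy1 averaged 816 CPM in CiLC, 5.72 in LC and 395 in MEF, and Lum 371 in CiLC, 5.72 in LC and 91.2 in MEF. The 2 called higher in LC were Dcn and Pdgfra. Dcn averaged 1279 CPM in CiLC, 1124 in LC and 454 in MEF. Pdgfra averaged 943 CPM in CiLC, 1786 in LC and 302 in MEF.

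CiLC held more mRNA of the 4 receptor genes among these 10 than either other group, and less of Ptgs2. Against MEF, 8 of the 10 genes were called higher in CiLC and 2 lower by edgeR's quasi-likelihood test at an adjusted p of 0.05. Over all 14581 genes tested, 26.1% were called higher and 25.5% lower in that comparison. In LC against MEF, 5 were called higher and 5 lower, beside 35.7% and 35% of all genes tested. In CiLC against LC, 6 were called higher, 3 lower and Ptgs1 was not called, beside 35% higher and 35.6% lower over all genes. The median log2 fold change of the 10 genes was 1.04 for CiLC against MEF, beside 0.0054 over all genes tested. It was -0.33 for LC against MEF, beside -0.0079, and 1.15 for CiLC against LC, beside 0.0046. The 10 genes were chosen with earlier results of these data known, so the shares and medians over all genes are no test of them. The 2 libraries of a group did not overlap those of either other group for all 10 genes, which is common here: the same held for 75% of all genes tested in CiLC against MEF, 83.8% in LC against MEF and 84.6% in CiLC against LC. The comparisons share libraries, so their results are not independent of each other. With an assumed coefficient of variation of 0.4, the member calls left in CiLC against MEF were 3 higher and 0 lower, namely Ptgds, Ptgfr and Ptger3.

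**Figure D1:**
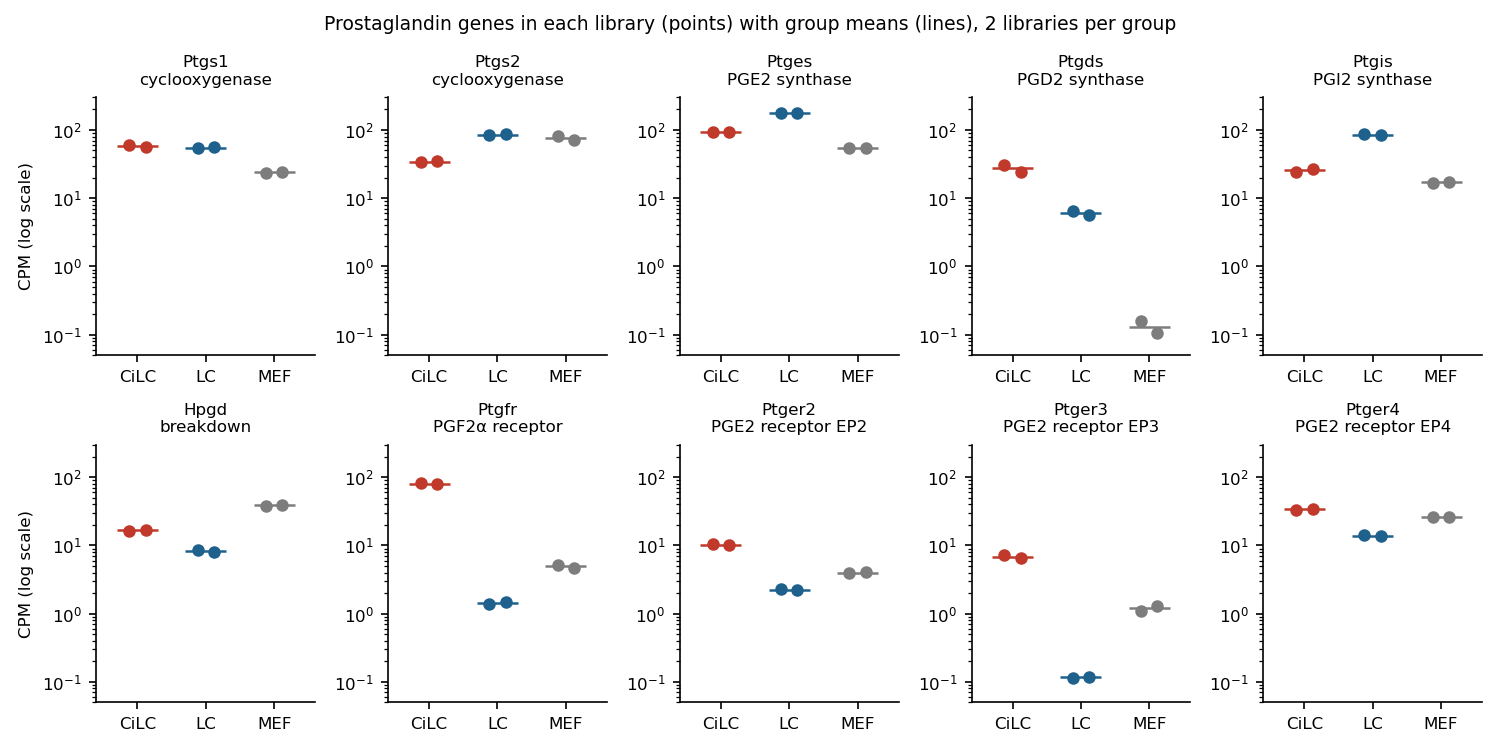
Level of each of the 10 genes in CPM (log axis) in the CiLC, LC and MEF libraries, with 1 point per library and a line at the mean of the 2 libraries. Ptgfr stands at 82.0 and 79.4 CPM in CiLC and under 6 CPM in the other groups, while Ptgs2 is lowest in CiLC.

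The cyclooxygenases went in opposite directions in CiLC. Ptgs1 (NCBI gene 19224), the form that most tissues keep on, stood at 59.5 and 56.8 CPM in CiLC, 53.8 and 56.3 in LC, and 23.5 and 24.3 in MEF. CiLC and LC lay close together and MEF lay below both. Ptgs1 was 2.43-fold higher in CiLC than in MEF (log2 fold change 1.28, SE 0.065, edgeR adjusted p 4.23e-14) and 2.30-fold higher in LC than in MEF (log2 1.203, SE 0.066, edgeR adjusted p 7.26e-14). Between CiLC and LC the log2 difference was 0.08 (SE 0.057, edgeR adjusted p 0.219), which did not pass the test. With upper-quartile scaling that difference was 0.16 and passed (adjusted p 0.0123).

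Ptgs2 (NCBI gene 19225), the inducible form that growth factors and inflammatory signals switch on, stood at 34.0 and 34.6 CPM in CiLC, 83.2 and 87.9 in LC, and 80.4 and 71.6 in MEF. It was lowest in CiLC, while LC and MEF were near each other. Ptgs2 was 2.22-fold lower in CiLC than in MEF (log2 -1.15, SE 0.065, edgeR adjusted p 3.9e-13) and 2.50-fold lower in CiLC than in LC (log2 -1.32, SE 0.065, edgeR adjusted p 9.65e-15). The call of Ptgs2 as higher in LC than in MEF was small (log2 0.17, SE 0.058, edgeR adjusted p 0.0116). It was lost without LC replicate 2 (adjusted p 0.126), without MEF replicate 2 (0.222), with upper-quartile scaling (0.289) and in DESeq2 (0.0549).

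Per kilobase of exon the balance of the pair differed between the groups. Ptgs1 and Ptgs2 stood at 20.3 ± 0.676 and 7.48 ± 0.0913 CPM per kb in CiLC, at 19.2 ± 0.623 and 18.7 ± 0.731 in LC, and at 8.34 ± 0.19 and 16.6 ± 1.35 in MEF (SD, n = 2 each). The level of Ptgs2 over that of Ptgs1 was 0.357 and 0.381 in the CiLC libraries, 0.968 and 0.977 in the LC libraries, and 2.14 and 1.85 in the MEF libraries. Thus Ptgs1 was the higher of the pair in CiLC, the pair was near even in LC, and Ptgs2 was the higher in MEF. Exon lengths came from GENCODE M21 on GRCm38, which is not the build of the counts, so levels per kilobase are approximate.

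All 3 terminal synthases were called higher in CiLC and in LC than in MEF, but they split between CiLC and LC. Ptges (NCBI gene 64292) encodes the inducible microsomal PGE2 synthase, which works mainly together with the Ptgs2 enzyme. Its level was 91.8 and 94.6 CPM in CiLC, 174 and 175 in LC, and 53.6 and 54.3 in MEF, so CiLC lay between the other groups. It was 1.73-fold higher in CiLC than in MEF (log2 0.79, SE 0.053, edgeR adjusted p 9.66e-12), 3.24-fold higher in LC than in MEF (log2 1.69, SE 0.051, edgeR adjusted p 7e-19) and 1.87-fold lower in CiLC than in LC (log2 -0.91, SE 0.047, edgeR adjusted p 4.02e-14).

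Ptgds (NCBI gene 19215), the lipocalin-type PGD2 synthase, is a secreted protein abundant in brain and in the male genital tract. It had 598 and 480 reads in the CiLC libraries, 111 and 97 in the LC libraries, and 3 and 2 in the MEF libraries. Scaled, this was 30.4 and 24.3 CPM in CiLC, 6.43 and 5.71 in LC, and 0.157 and 0.104 in MEF. CiLC held the most and MEF held almost none. The ratio of counts was 210 for CiLC over MEF (exact 95% binomial interval 89.6 to 647) and 46.5 for LC over MEF (19.6 to 145), intervals that cover counting error only. Ptgds was 4.50-fold higher in CiLC than in LC (log2 2.17, SE 0.13, edgeR adjusted p 1.92e-13).

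Ptgis (NCBI gene 19223), the prostacyclin synthase, went the other way between CiLC and LC. It stood at 24.4 and 26.5 CPM in CiLC, 86.9 and 83.1 in LC, and 16.7 and 17.4 in MEF. It was 1.49-fold higher in CiLC than in MEF (log2 0.58, SE 0.078, edgeR adjusted p 1.39e-06), 4.98-fold higher in LC than in MEF (log2 2.32, SE 0.070, edgeR adjusted p 3.29e-19) and 3.34-fold lower in CiLC than in LC (log2 -1.74, SE 0.063, edgeR adjusted p 2.33e-17). Per kilobase the 3 synthases stood in another order in CiLC than in LC and MEF. In CiLC the levels were 29.2 ± 4.59 for Ptgds, 25.6 ± 0.547 for Ptges and 11.1 ± 0.647 for Ptgis, in CPM per kb (SD, n = 2 each), and Ptgds and Ptges did not differ beyond their spread. In LC they were 47.9 ± 0.126 for Ptges, 37.2 ± 1.16 for Ptgis and 6.47 ± 0.547 for Ptgds, and in MEF 14.8 ± 0.128 for Ptges, 7.46 ± 0.221 for Ptgis and 0.139 ± 0.0401 for Ptgds, in CPM per kb (SD, n = 2 each). RefSeq places other transcripts over Ptges (Gm52550 and Gm13400) and Ptgis (Gm52569), whose reads could not be told apart from theirs because the strand setting of the counting is not given in the sources used here.

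Hpgd (NCBI gene 15446), the enzyme that starts the inactivation of prostaglandins, was lower in CiLC and in LC than in MEF. It stood at 16.2 and 16.98 CPM in CiLC, 8.46 and 8.003 in LC, and 38.4 and 39.6 in MEF. MEF held the most and LC the least, with no overlap. Hpgd was 2.35-fold lower in CiLC than in MEF (log2 -1.23, SE 0.075, edgeR adjusted p 1.6e-12), 4.73-fold lower in LC than in MEF (log2 -2.24, SE 0.095, edgeR adjusted p 1.25e-16) and 2.01-fold higher in CiLC than in LC (log2 1.01, SE 0.10, edgeR adjusted p 4.7e-09).

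The 4 receptors shared an order that none of the other 6 genes had. All 4 were highest in CiLC and lowest in LC, with MEF between, and all 4 passed the test in each of the 3 comparisons. Of all genes tested, 26.1% were called higher in CiLC against MEF, 35% lower in LC against MEF and 35% higher in CiLC against LC. The share of all genes tested that had this order was not counted, and the receptors were chosen with earlier results known. Log2 fold changes of the receptors ran from 0.37 to 4.03 in CiLC against MEF, from -3.29 to -0.83 in LC against MEF, and from 1.29 to 5.81 in CiLC against LC. So on these mRNAs CiLC differed from MEF in the direction opposite to LC.

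Ptgfr (NCBI gene 19220), the receptor for PGF2α that raises intracellular calcium, had the largest log2 fold change of the 4 receptors in CiLC against MEF. It stood at 82.0 and 79.4 CPM in CiLC, 1.39 and 1.47 in LC, and 5.24 and 4.63 in MEF. Both CiLC libraries were far above all others. Ptgfr was 16.3-fold higher in CiLC than in MEF (log2 4.03, SE 0.11, edgeR adjusted p 3.44e-21), 3.44-fold lower in LC than in MEF (log2 -1.78, SE 0.21, edgeR adjusted p 2.18e-08) and 56.2-fold higher in CiLC than in LC (log2 5.81, SE 0.19, edgeR adjusted p 1.28e-22). Its counts were not whole in any of the 6 libraries, as happens where reads that match several places are split, and this makes its level less certain. The counts of Ptgs1 and Ptges were not whole in 3 libraries each.

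The PGE2 receptors differ in what they signal. EP2 and EP4, from Ptger2 and Ptger4, raise cyclic AMP, the messenger that luteinizing hormone also uses in Leydig cells, whereas EP3, from Ptger3, mostly lowers it. Ptger2 (NCBI gene 19217) stood at 10.5 and 10.04 CPM in CiLC, 2.26 and 2.24 in LC, and 3.88 and 4.11 in MEF. It was 2.57-fold higher in CiLC than in MEF (log2 1.36, SE 0.14, edgeR adjusted p 1.06e-08) and 1.77-fold lower in LC than in MEF (log2 -0.83, SE 0.19, edgeR adjusted p 0.00044). Between CiLC and LC the gap was 4.55-fold (log2 2.19, SE 0.17, edgeR adjusted p 1.49e-11), with CiLC higher.

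Ptger3 (NCBI gene 19218) stood at 7.12 and 6.54 CPM in CiLC, 0.116 and 0.118 in LC, and 1.10 and 1.30 in MEF. The LC libraries held 2 reads each, which leaves the gene near its limit of detection there. It was 5.66-fold higher in CiLC than in MEF (log2 2.50, SE 0.24, edgeR adjusted p 7.2e-10). The ratio of counts was 58.5 for CiLC over LC (exact 95% binomial interval 22.6 to 216) and 10.3 for MEF over LC (3.75 to 39.3).

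Ptger4 (NCBI gene 19219) was the most even of the receptors, at 33.2 and 34.7 CPM in CiLC, 14.0 and 13.7 in LC, and 26.1 and 26.4 in MEF. It was 1.29-fold higher in CiLC than in MEF (log2 0.37, SE 0.068, edgeR adjusted p 7.32e-05), a call that was lost when a coefficient of variation of 0.1 between replicates was assumed (adjusted p 0.0598). It was 1.89-fold lower in LC than in MEF (log2 -0.92, SE 0.083, edgeR adjusted p 6.31e-10) and 2.44-fold higher in CiLC than in LC (log2 1.29, SE 0.080, edgeR adjusted p 6.23e-13). Per kilobase, Ptgfr was the most abundant of the 4 in CiLC at 12.04 ± 0.271 CPM per kb, ahead of Ptger4 at 10.2 ± 0.32, Ptger2 at 2.78 ± 0.0848 and Ptger3 at 2.11 ± 0.127 (SD, n = 2 each). In LC and in MEF the most abundant was Ptger4, at 4.17 ± 0.0672 and 7.89 ± 0.0604 CPM per kb (SD, n = 2 each), while Ptgfr stood at 0.213 ± 0.00843 in LC and 0.736 ± 0.0642 in MEF.

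**Figure D2:**
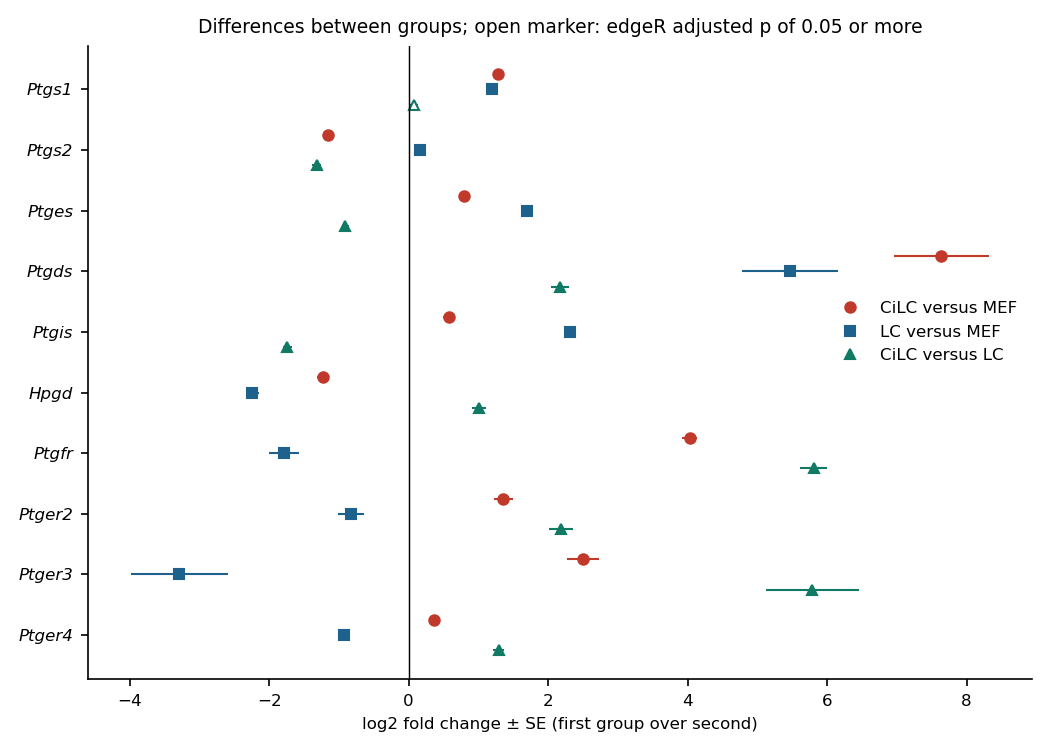
Log2 fold change of each gene with its SE from edgeR for CiLC against MEF (circles), LC against MEF (squares) and CiLC against LC (triangles), where filled markers passed an adjusted p of 0.05. The 4 receptors lie right of 0 for CiLC against MEF and left of 0 for LC against MEF, and the 3 synthases lie right of 0 in both. The fitted values of Ptgds against MEF and of Ptger3 against LC rest on 5 and 4 reads in the lower group.

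Other genes of the same route were counted from lists, which were chosen with earlier results of these data known. Each count, here and below, stands beside the shares over all 14581 genes tested. These were 26.1% higher and 25.5% lower in CiLC against MEF, and 35.7% and 35% in LC against MEF. In CiLC against LC the shares were 35% and 35.6%. Of 7 other receptors tested, 3 were called higher and 2 lower in CiLC against MEF (median log2 change -0.02), 2 higher and 5 lower in LC against MEF (-0.83), and 5 higher and 2 lower in CiLC against LC (0.54). Ptgdr, which encodes the PGD2 receptor DP1, had the order of the 4 receptors above, at 2.08 ± 0.21 CPM in CiLC, 0.0294 ± 0.0416 in LC and 0.678 ± 0.144 in MEF (SD, n = 2 each). It rested on a single read in LC, and CiLC over LC was 71.3 in counts (exact 95% binomial interval 12.4 to 2850). Pparg, a nuclear receptor that PGD2 breakdown products can bind, also had that order, at 6.02 ± 0.236 CPM in CiLC, 0.671 ± 0.0341 in LC and 3.34 ± 0.352 in MEF (SD, n = 2 each).

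The remaining receptors of that list did not share the order. Ptgir, the prostacyclin receptor, was high in both CiLC and LC, at 24.6 ± 0.599 and 28.6 ± 0.727 CPM, against 7.70 ± 1.11 in MEF (SD, n = 2 each), and was 3.19-fold and 3.72-fold higher than in MEF (edgeR adjusted p 1.14e-12 and 3.32e-14). Ptgir was thus the receptor, and Ptgis the synthase, of a ligand for which both genes were called higher in CiLC and in LC than in MEF. The thromboxane receptor Tbxa2r was lower in both, at 9.42 ± 0.921 CPM in CiLC and 2.36 ± 1.01 in LC, against 21.1 ± 1.4 in MEF (SD, n = 2 each), or 2.24-fold and 8.91-fold lower (edgeR adjusted p 1.63e-08 and 2.57e-14). Ptger1, the EP1 receptor, was 1.22-fold lower in CiLC than in MEF (edgeR adjusted p 0.0267), a call lost without CiLC replicate 1 (0.212) or MEF replicate 1 (0.185), which leaves 1 lower call in this list. Likewise, Ptgir was called slightly lower in CiLC than in LC (log2 -0.22, edgeR adjusted p 0.0179), a call lost without CiLC replicate 2, LC replicate 1 or LC replicate 2 (adjusted p 0.113, 0.124 and 0.0504).

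Among 9 other terminal synthases tested, 3 were called higher and 1 lower in CiLC against MEF, 6 higher and 1 lower in LC against MEF, and 2 higher and 5 lower in CiLC against LC. The first count was 0 with an assumed coefficient of variation of 0.1 between replicates. It also changed when some single libraries were left out. The gene lower in both was Hpgds, the hematopoietic PGD2 synthase, at 49.8 ± 2.24 CPM in CiLC and 10.6 ± 0.361 in LC, against 101 ± 0.508 in MEF (SD, n = 2 each), or 2.04-fold and 9.53-fold lower (edgeR adjusted p 1e-13 and 1.88e-21). Per kilobase Ptgds and Hpgds stood at 29.2 ± 4.59 and 14.3 ± 0.645 CPM per kb in CiLC, 6.47 ± 0.547 and 3.06 ± 0.104 in LC, and 0.139 ± 0.0401 and 29.2 ± 0.146 in MEF (SD, n = 2 each). Ptgds was the higher of these PGD2 synthases in CiLC and LC, and Hpgds in MEF. Hpgds counts were not whole in 6 libraries. Akr1b3, an aldose reductase that can form PGF2α from PGH2, was 8.36-fold higher in LC than in MEF (edgeR adjusted p 1.41e-23), at 79.1 ± 3.61 CPM in CiLC, 578 ± 9.40 in LC and 69.1 ± 0.466 in MEF (SD, n = 2 each). CiLC stayed 7.31-fold below LC for this gene (edgeR adjusted p 4.35e-23), so the group with the most Ptgfr was not the group with the most Akr1b3.

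Of 8 transport and breakdown genes tested, 6 were called higher and 0 lower in CiLC against MEF, 6 higher and 1 lower in LC against MEF, and 2 higher and 5 lower in CiLC against LC. With an assumed coefficient of variation of 0.1 between replicates the first count was 3. The prostaglandin uptake carrier Slco2a1 stood at 32.2 ± 0.0437 CPM in CiLC, 58.4 ± 1.41 in LC and 7.13 ± 0.442 in MEF (SD, n = 2 each). It was 4.52-fold higher in CiLC than in MEF (edgeR adjusted p 7.09e-16) and 8.19-fold higher in LC than in MEF (edgeR adjusted p 6.87e-20), opposite in direction to Hpgd, which breaks down what the carrier brings in. Cbr2, a carbonyl reductase, had the receptors' order at 47.3 ± 3.29 CPM in CiLC, 0.612 ± 0.20 in LC and 14.7 ± 1.03 in MEF (SD, n = 2 each). The higher count in CiLC against LC was 1 when any CiLC or LC library was left out, since Cbr3 (edgeR adjusted p 0.046) was then not called (adjusted p 0.0529 to 0.205).

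Of 12 arachidonate release genes tested, 3 were called higher and 3 lower in CiLC against MEF, 5 higher and 5 lower in LC against MEF, and 4 higher and 6 lower in CiLC against LC. The cytosolic phospholipase Pla2g4a, which frees arachidonic acid for the cyclooxygenases, was 1.61-fold lower in CiLC and 1.39-fold lower in LC than in MEF (edgeR adjusted p 6.7e-10 and 1.61e-07). Mgll, a lipase that frees arachidonic acid from 2-arachidonoylglycerol, stood at 7.57 ± 0.197 CPM in CiLC, 2.11 ± 0.766 in LC and 27.2 ± 1.78 in MEF (SD, n = 2 each) and was called lower in both. Of 12 genes of the lipoxygenase and leukotriene branch, which competes for the same fatty acid, 3 were called higher and 4 lower in CiLC against MEF, 2 higher and 7 lower in LC against MEF, and 6 higher and 3 lower in CiLC against LC. The first of these counts was 0 with an assumed coefficient of variation of 0.1 between replicates and 1 in DESeq2. It also fell when CiLC replicate 1 was left out.

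**Figure D3:**
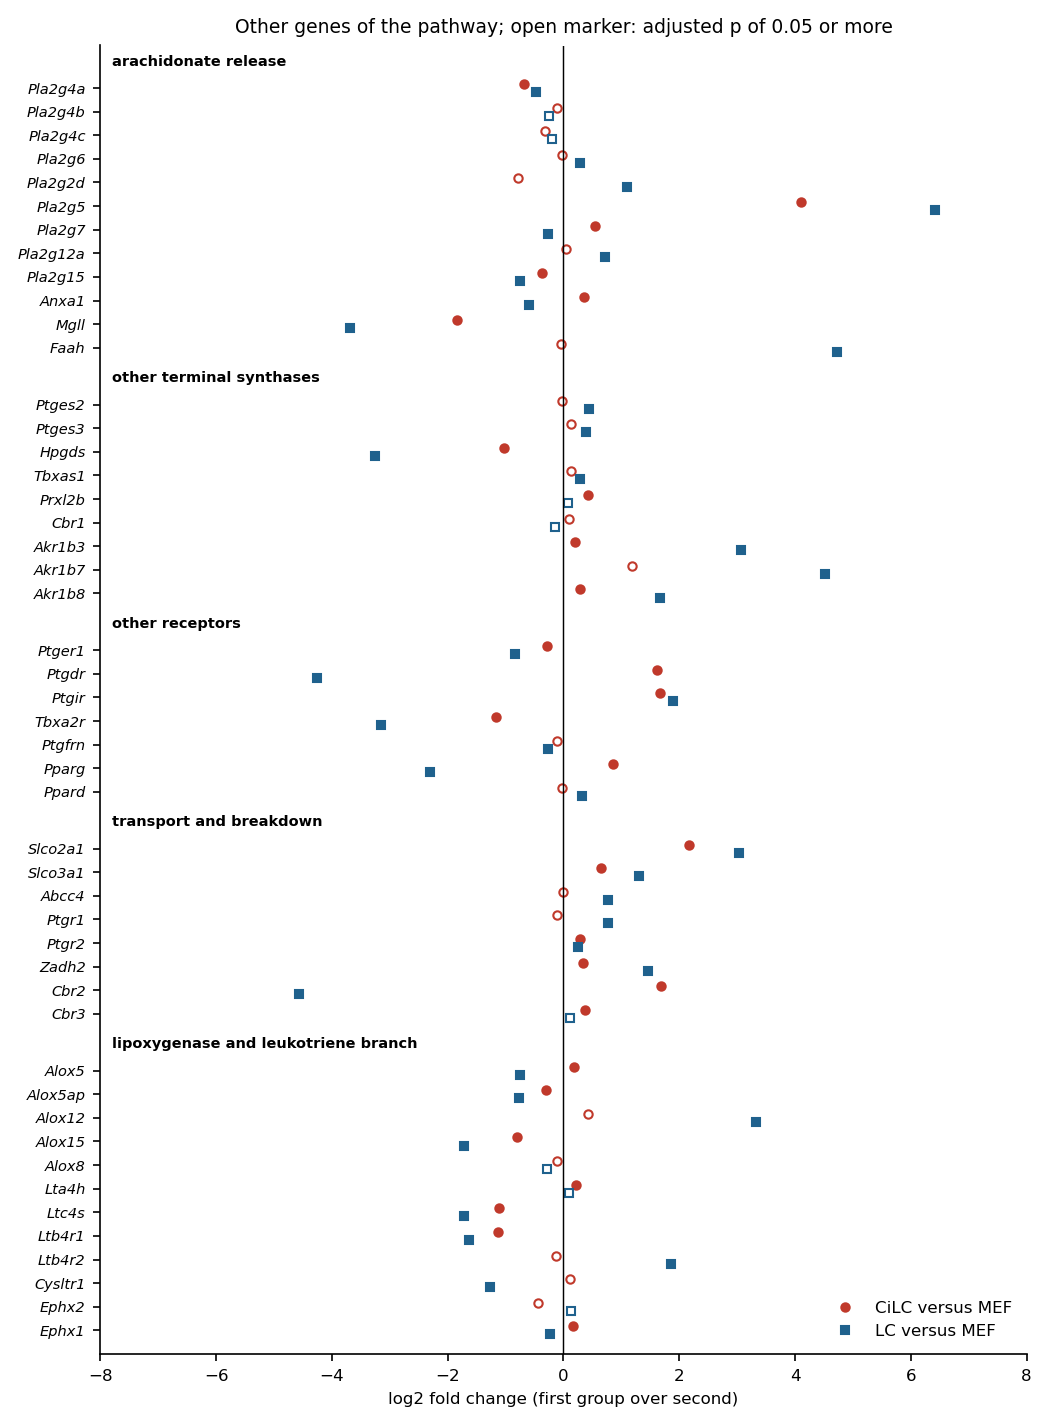
Log2 fold change of the 48 other tested genes of the route, by list, for CiLC against MEF (circles) and LC against MEF (squares), where filled markers passed an adjusted p of 0.05. Ptgir and Slco2a1 lie right of 0 in both comparisons, Hpgds and Tbxa2r left of 0 in both, and Ptgdr, Pparg and Cbr2 on opposite sides. Values beyond 4 in either direction rest on groups with at most 5 reads, except those of Cbr2.

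In bulk RNA, fewer cells of a type and less RNA per cell cannot be told apart, and markers of other cell types differed between the groups. The 5 mesothelial markers, of the lining of body cavities, summed to 121 and 113 CPM in the CiLC libraries, 3.25 and 1.82 in LC, and 16.1 and 18.7 in MEF. This is the order of the 4 receptors: all 5 were called higher in CiLC and lower in LC than in MEF. Some single markers of other lists had the same order and calls. Among them were Thy1 and Lum of the fibroblast list, and Mrc1 and Ptprc of the macrophage list. The part of mesothelial or other cells in the receptor result was not tested. The 12 macrophage markers summed to 4528 and 4538 CPM in CiLC, 2416 and 2358 in LC, and 6155 and 6183 in MEF, the order of Hpgd and Hpgds. Of these markers, 3 were called higher and 6 lower in CiLC against MEF, and 2 higher and 9 lower in LC against MEF. Macrophages are known to express Hpgds, Ptgs1, Tbxas1 and the lipoxygenase genes, and their part in those results was not tested.

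The 5 smooth muscle and peritubular markers summed to 142 and 144 CPM in CiLC, 964 and 949 in LC, and 1618 and 1541 in MEF, with all 5 called lower in CiLC than in MEF and than in LC. In LC against MEF, 2 (Tagln and Des) were called higher and 3 lower. Most of the MEF sum was Acta2, at 1168 and 1091 CPM. Ptgs2 was also lowest in CiLC, and the part of such cells in that result was not tested. Sertoli markers, from the cells that nurse sperm, summed to 17.9 and 18.3 CPM in CiLC, 183 and 180 in LC, and 12.4 and 12.2 in MEF, and all 5 tested were called higher in LC than in MEF. Endothelial markers summed to 9.61 and 9.63 CPM in CiLC, 68.9 and 76.8 in LC, and 24.8 and 24.2 in MEF. Most of the LC sum was Cdh5, at 57.1 and 63.8 CPM, and of the 5 endothelial markers 2 were called higher and 1 (Kdr) lower in LC against MEF. Emcn, at 0.730 CPM in LC and 0.966 in MEF, and Tek, at 0.497 in LC and 0.261 in MEF, were not called. Endothelial and smooth muscle cells are known sources of prostacyclin, and their part in the Ptgis result was not tested. Germ cell markers stayed at or below 4.21 CPM and mast cell markers at or below 2.34 CPM in every library.

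**Figure D4:**
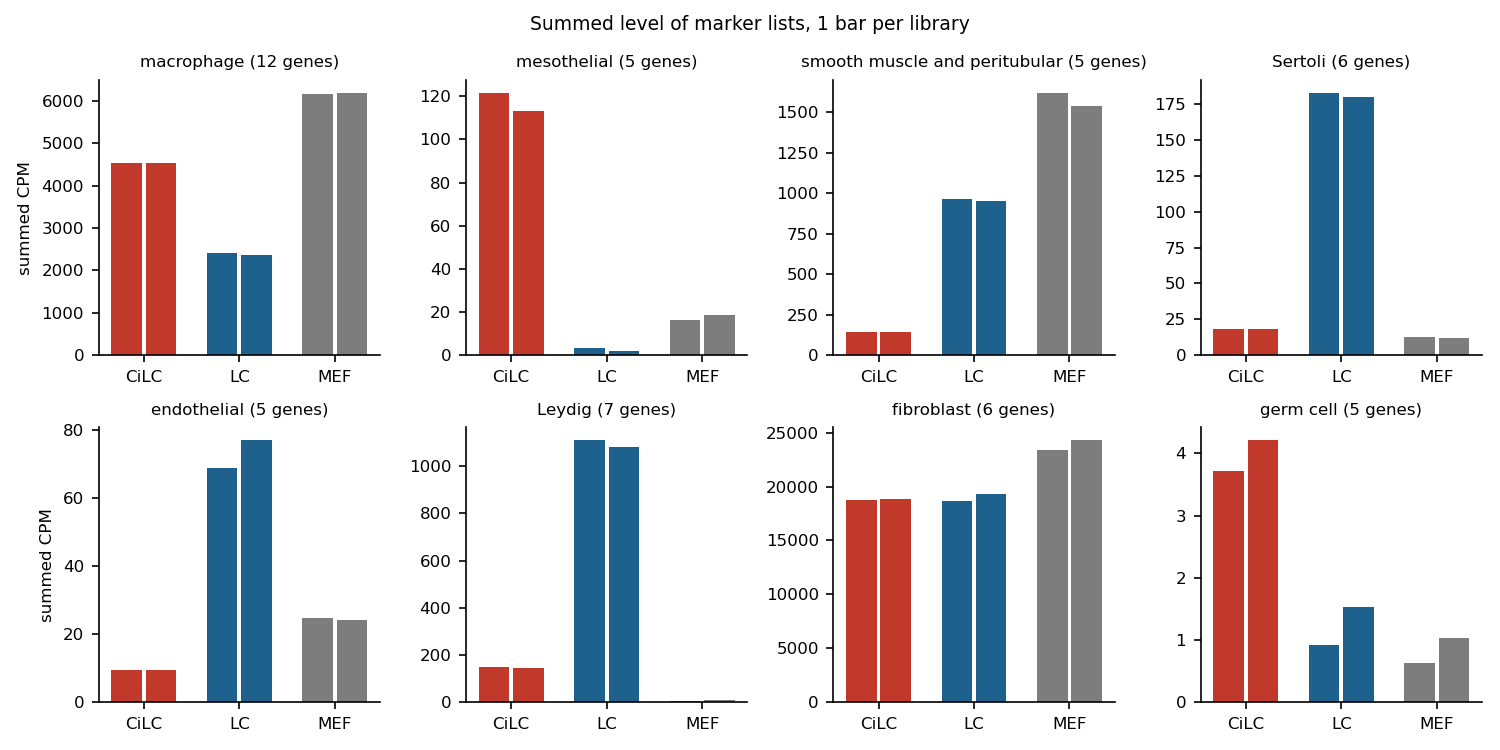
Summed level of 8 lists of cell type markers in CPM (linear axes from 0, a scale for each list), with 1 bar per library for CiLC, LC and MEF. Mesothelial markers are highest in CiLC at 121 and 113 CPM, macrophage markers are highest in MEF at 6155 and 6183 CPM, and Leydig and Sertoli markers are highest in LC.

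The genes most like each member were found by the root mean square distance between log2 levels (CPM + 0.5, centred) over the 6 libraries, among 10566 genes of at least 10 CPM in a group. The nearest to Ptgfr were Cdh13, Vat1l and Krt7, at distances of 0.246, 0.295 and 0.308 against a median of 2.29 over all these genes. Cdh13, a cadherin anchored to the membrane by a lipid, stood at 79.2 CPM in CiLC, 0.848 in LC and 3.63 in MEF, and Krt7, a keratin of simple epithelia, at 17.9 CPM in CiLC, 0.0290 in LC and 1.52 in MEF. The nearest to Ptgds were Akr1c14, at 0.296, and the leptin receptor Lepr, at 0.328, against a median of 2.27. Akr1c14, a hydroxysteroid dehydrogenase, stood at 35.4 CPM in CiLC, 9.92 in LC and 0.784 in MEF. For Ptgs1 the nearest was Klf9 at 0.0677, for Ptgs2 Kcp at 0.0724, for Ptges Slc11a2 at 0.0334, for Ptgis Lpcat3 at 0.0355 and for Hpgd Smagp at 0.0472. For Ptger2 it was Man1a at 0.0799 and for Ptger4 Frmd4b at 0.01. Ptger3 was below the 10 CPM that the measure asks for.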

How the data were processed

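RNA of 6 libraries was measured, 2 each of CiLC, LC and MEF, grouped by sample title. The authors deposited expected counts, estimated reads for each NCBI gene number, per the file headers. Reads were aligned with HISAT to mm9, per the submitters' processing notes. Counting tool, annotation and strand: not given in the sources used here. Between 32.4% and 32.8% of values were not whole.

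Gene numbers were matched to symbols in RefSeq (GRCm38.p6) for 18179 of 18305 genes. Rounded counts went into edgeR 4.0.16 (R 4.3.3), where filterByExpr (minimum count 10, total 15) kept 14581 genes, libraries were scaled by TMM, and a single quasi-likelihood fit of all 6 libraries had group as its only term. Two-sided p-values were adjusted by Benjamini-Hochberg over the 14581 genes, and genes were called at 0.05. Levels are CPM on the scaled library sizes. The procedure was tested on simulated data with a spread near that found between these libraries. That test does not cover a larger spread between cultures. Fitted log2 fold changes include a prior count of 0.125, so where a group held 10 reads or fewer a ratio of counts with an exact interval is given.

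Alternatives were other scalings (RLE, upper quartile), other low-count filters, DESeq2 1.42.0, limma 3.58.1 with voom, assumed coefficients of variation of 0.1 and 0.4, a replicate block, fits of the 4 libraries compared, and leaving out each library. No label tells if replicate numbers pair the libraries, and the main fit did not treat them as pairs. All 10 members are named, and of the other pathway lists only genes that passed the test in a comparison. The members and lists were chosen with earlier results of these data known. Chi-square per degree of freedom between the libraries of a group was 1.80 in CiLC, 2.94 in LC and 2.77 in MEF, above sampling noise, so both were kept.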

Additional observations from a re-analysis of the deposited data

How the results depend on the processing

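The 10 members gave 30 log2 fold changes. Over 16 alternatives, 458 of 480 values kept their direction and their side of the threshold, 21 lost the call, 1 gained it and 0 reversed. Of the 21 losses, 15 came with an assumed coefficient of variation of 0.4. The others were 5 of Ptgs2 in LC against MEF and 1 of Ptger4 in CiLC against MEF. For 108 called differences of the other pathway genes, 1550 of 1707 values were kept, 157 lost the call and 0 reversed. With the coefficient at 0.1, genes called in CiLC against MEF numbered 2064 higher and 2141 lower. With 0.4 they numbered 407 and 268 in CiLC against MEF, 1450 and 1058 in LC against MEF, and 937 and 1314 in CiLC against LC. Members called were then 3 higher and 0 lower in CiLC against MEF, 3 higher and 3 lower in LC against MEF, and 4 higher and 1 lower in CiLC against LC. Fewer calls follow from the larger assumed spread itself. Upper-quartile scaling shifted the median of all genes by -0.10 in LC against MEF.

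Same-numbered libraries deviated with correlations of -0.106 (CiLC and LC), 0.0525 (CiLC and MEF) and 0.0822 (LC and MEF) over 8712 genes. With a replicate block, members called stayed at 8 and 2, 5 and 5, and 6 and 3. With the numbers crossed between CiLC and LC, chosen after seeing the data, 5318 genes and 6 members were called higher and 5265 genes and 3 members lower. Ptgds in MEF and Ptger3 in LC are limited by depth, at 5 and 4 reads in all.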
